A study of Mus musculus with 6 samples.

Results

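The genes described here code for the nuclear-encoded parts of the mitochondrial respiratory chain and the ATP synthase. They were chosen by symbol from the probe annotation: names beginning with Nduf followed by a, b, c, s or v for complex I, Sdha to Sdhd for complex II, names beginning with Uqcr for complex III, Cox4 to Cox8 for complex IV and Atp5 for complex V. The rule took 87 of 19057 genes, with 44 in complex I, 4 in complex II, 7 in complex III, 16 in complex IV and 16 in complex V. Among them 10 match by name only and are no subunits: 8 Ndufaf assembly factors, the pseudogene symbol Ndufs5-ps and the supercomplex factor Cox7a2l.

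Total RNA from mouse embryonic fibroblasts, cells grown out of dissociated embryos, was hybridised to Illumina bead arrays. The groups were Lasp1-/- fibroblasts (Lasp1 knockout, 3 arrays) and Lasp1+/+ fibroblasts (wild type, 3 arrays), all of the C57Bl/6NCr strain and with no treatment named in the labels. Lasp1 codes for an actin-binding LIM and SH3 domain protein of focal adhesions, and the series title links its disruption to faster cell migration and to tumours. No label states that replicates were grown separately or came from different embryos. P-values therefore measure the spread between these arrays, which may be technical.

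Each value is a linear probe intensity, and every array has a median of 1000. That median lies in the range of background light, so the fold change of a dim probe is understated. The upper quartile of the arrays was 2018 to 2283 in knockout and 2041 to 2330 in wild type, highest in knockout replicate 1 and wild type replicate 2. Lasp1 read 51904, 51019 and 49770 on the knockout arrays, against 135295, 148208 and 148809 on the wild-type arrays, a log2 difference of -1.50 ± 0.07 (SE). The position of the probe against the targeted exons is not known here. All 12 fibroblast markers were brighter than the median probe in 1 group or both. Their summed intensity was 828502 to 885604 in knockout and 1014913 to 1182504 in wild type, and 5 of them (Col1a2, Dcn, Lum, Pdgfrb and Thy1) fell. Leaving out knockout replicate 3 gave 0 falls, wild type replicate 3 gave 1 and knockout replicate 2 gave 2. The count was 0 with normexp background correction, 2 with the replicate block, 3 with the mean of all probes and 9 with array weights.

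Complexes I and II take electrons from NADH and succinate, complex III passes them to cytochrome c, and complex IV (cytochrome c oxidase) hands them to oxygen. Complexes I, III and IV pump protons, and complex V uses the gradient to make ATP. Complex IV is unusual in that several of its small nuclear subunits exist as paired isoforms, a widely expressed form and a form restricted to tissues such as heart, skeletal muscle, brown fat or testis.

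The respiratory chain genes that differed most between genotypes on the deposited scale were tissue-restricted isoforms of complex IV, and they went in opposite directions. Cox6a2, the heart and skeletal muscle form of subunit VIa, and Cox8b, a muscle and brown fat form of subunit VIII, were lower in knockout fibroblasts, Cox6a2 by 2.03-fold and Cox8b by a size that is not settled, since its knockout readings lay in the range of background. Cox6b2, the testis form of subunit VIb, was 1.94-fold higher. With limma and a threshold of 0.05 on the p adjusted over all genes, 1 member rose, 4 fell and 82 did not pass. The members called were 5.75%, against 6.28% of all 19057 genes and 9.94% of the 11985 genes brighter on average than the median probe, so the share was close to the background or below it. In direction, 2.19% of all genes rose and 4.08% fell. At an unadjusted p under 0.05, 15 members were lower and 1 higher, or 18.4%, against 18.6% of all genes and 28.3% of the brighter ones. The arrays of the genotypes did not overlap in 18 members, or 20.7%, against 21.3% of all genes and 27.7% of the brighter ones. Without knockout replicate 1 and wild type replicate 2 together, 2 rose and 7 fell. Leaving out 1 array at a time gave 1 or 2 rises and 2 to 5 falls, with 1 rise and 2 falls without knockout replicate 2, knockout replicate 3 or wild type replicate 3. Quantile normalization gave 2 rises and 3 falls, and 48.2% of all called genes were then higher, against 34.9% with the deposited scaling.

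**Figure D1:**
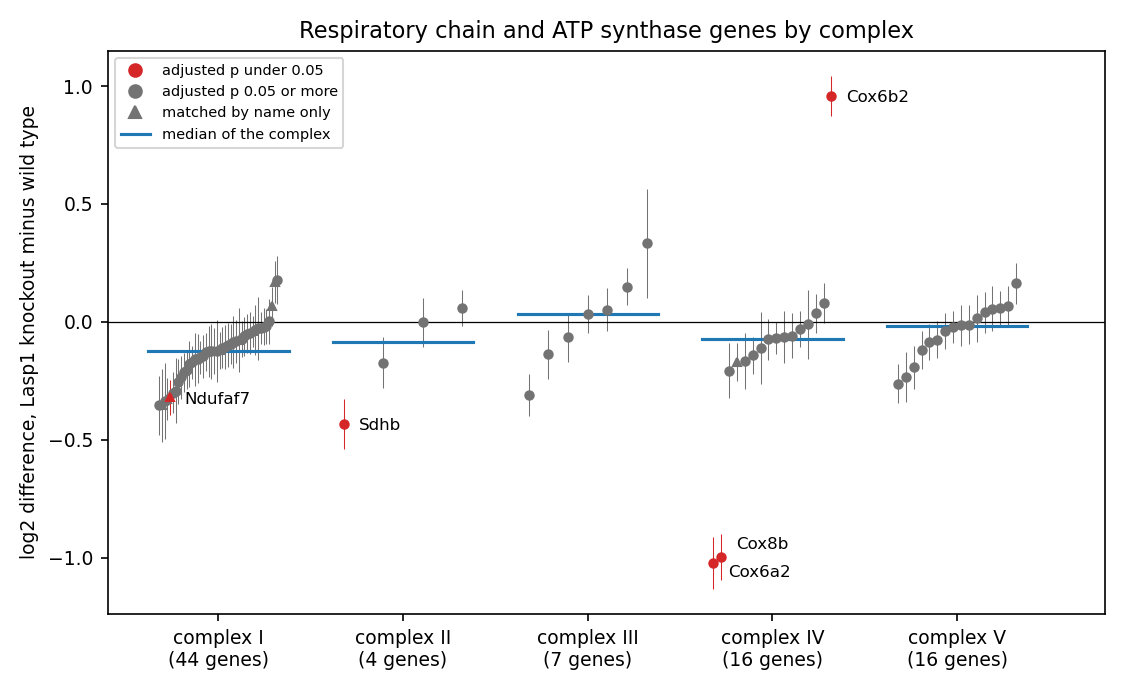
Log2 difference (Lasp1 knockout minus wild type, y axis) of each of the 87 genes with its standard error, sorted within complexes I to V. Red marks genes with a limma adjusted p under 0.05, triangles mark genes matched by name only and blue lines are medians; Cox6b2 stands at 0.96, and Cox6a2 and Cox8b at -1.02 and -0.996, while every other gene lies between -0.43 and 0.33.

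Promoter sequences are shown for the called isoforms Cox6b2 and Cox8b and for the widely expressed Cox6b1 and Cox6a1, as examples of restricted and general subunits. Sdhb, the called subunit of complex II, is shown beside them. The sequences come from RefSeq promoters of GRCm38.p6, which held 72 of the 87 members, and cover the 250 bases before the annotated start, 5′ to 3′ on the strand of the gene. Cox6a2 is not shown. Capitals mark matches on either strand to CGGAAG (the core bound by ETS factors such as GABPA), GCATGCGC (a core of the NRF1 site, whose match on both strands in Cox6a1 overlaps) or CAGCTG (an E-box).
Cox6b2, chr7:4753095-4753344, minus strand: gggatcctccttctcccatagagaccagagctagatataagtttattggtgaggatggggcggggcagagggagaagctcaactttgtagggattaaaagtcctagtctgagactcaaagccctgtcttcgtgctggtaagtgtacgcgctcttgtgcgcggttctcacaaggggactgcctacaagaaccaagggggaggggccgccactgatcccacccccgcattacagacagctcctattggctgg
Cox8b, chr7:140900447-140900696, minus strand: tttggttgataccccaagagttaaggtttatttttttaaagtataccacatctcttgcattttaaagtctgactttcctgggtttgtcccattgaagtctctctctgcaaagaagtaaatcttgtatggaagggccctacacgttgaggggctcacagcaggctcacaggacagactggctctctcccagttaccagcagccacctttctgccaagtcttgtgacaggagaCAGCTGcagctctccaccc
Cox6b1, chr7:30626115-30626364, minus strand: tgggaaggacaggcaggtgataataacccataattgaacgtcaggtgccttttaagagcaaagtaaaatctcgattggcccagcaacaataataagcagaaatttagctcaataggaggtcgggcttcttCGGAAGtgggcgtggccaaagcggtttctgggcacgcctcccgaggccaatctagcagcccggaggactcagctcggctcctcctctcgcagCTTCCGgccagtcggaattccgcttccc
Cox6a1, chr5:115348959-115349208, minus strand: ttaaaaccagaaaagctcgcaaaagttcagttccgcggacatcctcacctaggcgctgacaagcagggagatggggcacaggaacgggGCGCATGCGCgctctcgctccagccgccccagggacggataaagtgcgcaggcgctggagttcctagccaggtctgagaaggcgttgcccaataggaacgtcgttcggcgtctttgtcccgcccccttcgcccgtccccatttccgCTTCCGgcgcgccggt
Sdhb, chr4:140961021-140961270, plus strand: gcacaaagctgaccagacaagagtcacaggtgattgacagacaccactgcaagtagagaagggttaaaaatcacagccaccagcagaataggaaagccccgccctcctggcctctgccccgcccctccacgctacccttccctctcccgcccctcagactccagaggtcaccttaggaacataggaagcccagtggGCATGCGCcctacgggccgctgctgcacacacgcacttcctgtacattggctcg

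Cox6b1 and Cox6a1 hold the ETS core, Cox6a1 and Sdhb the NRF1 core, Cox8b the E-box, and Cox6b2 none of these letters in this window. Over the 72 members with an entry, 28 (38.9%) held the ETS core, against 15.3% of 27025 genes. The NRF1 core was in 9 members (12.5%), against 2.56% of genes, and the E-box in 5 (6.94%), against 14.7%. By complex, the ETS core was in 9 of 14 genes of complex V, 13 of 39 of complex I and 3 of 11 of complex IV. These are matches of letters and not sites shown to be bound.

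Cox6a2 read 2719, 2519 and 2895 on the knockout arrays, against 4783, 6364 and 5443 on the wild-type arrays. Every knockout value lay below every wild-type value, and the means were 2711 ± 188 and 5530 ± 794 (SD, n = 3 each). The log2 difference was -1.02 ± 0.11 (SE), with a limma adjusted p of 0.000738. It was called under each of 15 alternative settings, with adjusted p between 5.41e-09 and 0.0188.

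Cox8b read 950, 826 and 992 in knockout, against 1718, 2030 and 1769 in wild type. The knockout values lay below the array median, in the range of background, and the wild-type values lay above it. The log2 difference was -0.996 ± 0.10 (SE; limma adjusted p = 0.000461). Because the knockout side is dim the size is not settled, and after normexp background correction the log2 difference was -2.15.

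Cox6b2 read 5319, 5559 and 5413 in knockout, against 2591, 3097 and 2724 in wild type. The groups were separate, with means of 5431 ± 121 and 2804 ± 263 (SD, n = 3 each), and the log2 difference was 0.96 ± 0.08 (SE; limma adjusted p = 0.000249). A further Cox6b2 probe read 980 in knockout and 943 in wild type on average, close to the array median, and differed by 0.06 on the log2 scale. The mean of both probes differed by 0.51 (limma adjusted p = 0.00431).

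**Figure D2:**
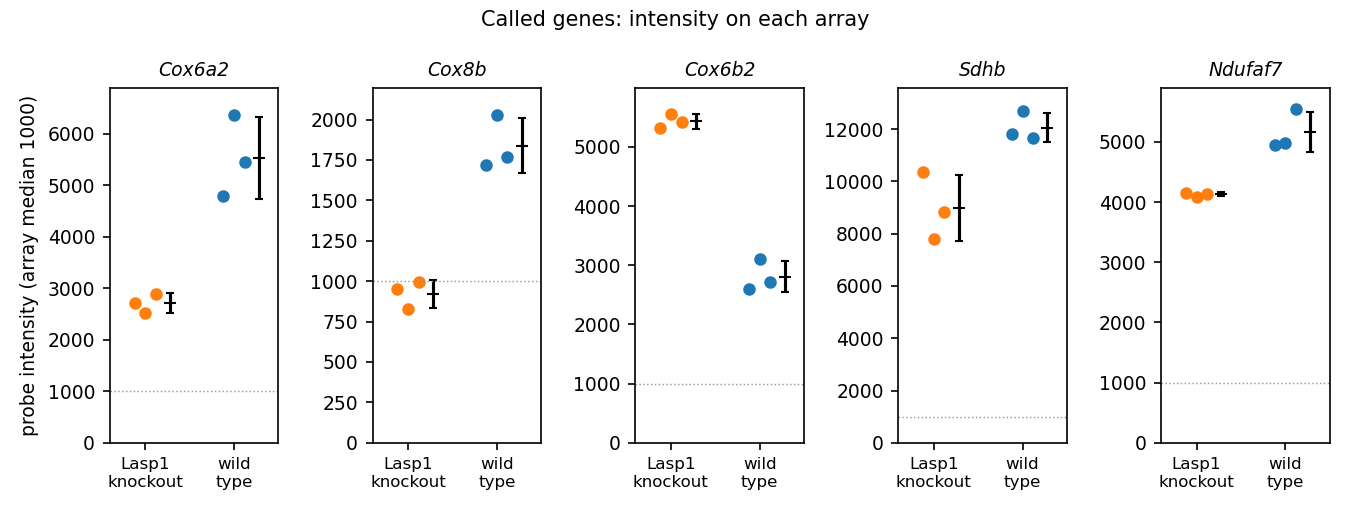
Probe intensity (y axis, linear from 0, array median 1000 as a dotted line) of the called genes on each array, with Lasp1 knockout left of wild type; bars give the mean and SD of 3 arrays. In each gene the knockout arrays are separate from the wild-type arrays, and Cox8b in knockout lies below the array median.

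The widely expressed partners of Cox6a2 and Cox6b2 did not pass the test. No widely expressed partner of Cox8b was among the members, so Cox8b was not set against one. Cox6a1 read 82613, 65171 and 70242 in knockout, against 72830, 94520 and 84329 in wild type, so the groups overlapped (log2 difference -0.21 ± 0.12 SE, limma adjusted p = 0.425). Cox6b1 read 166061, 149304 and 148201 in knockout, against 136499, 181296 and 169678 in wild type, and the groups overlapped (-0.06 ± 0.11, limma adjusted p = 0.855). The change of each restricted form was then set against that of its partner within each array, for 4 pairs. Cox6a2 minus Cox6a1 differed between genotypes by -0.81, and Cox6b2 minus Cox6b1 by 1.02. Each had an exact two-sided permutation p of 0.1, the smallest that 3 arrays against 3 allow, or 0.2 adjusted over the 4 pairs. For Cox4i2 minus Cox4i1 the value was 0.04 (exact p = 0.9), and for Cox7a1 minus Cox7a2 it was -0.18 (exact p = 0.3). Cox4i2 read near the array median. Cox7a2 averaged 1707 in knockout and 1665 in wild type, dimmer than Cox7a1 at 2391 and 2641. A small difference in these pairs therefore says little.

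The other restricted forms of complex IV did not pass. Cox7a1, the heart and skeletal muscle form of subunit VIIa, read 2476, 2359 and 2337 in knockout, against 2470, 2833 and 2620 in wild type. These groups overlapped through knockout replicate 1 and wild type replicate 1, and the log2 difference was -0.14 ± 0.08 (limma adjusted p = 0.393). Cox4i2, a lung form of subunit IV induced by low oxygen, averaged 969 ± 33.8 in knockout and 1015 ± 20.2 in wild type (SD, n = 3 each), and the testis forms Cox8c and Cox7b2 read below the array median on every array. At that level a missing call says little.

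Of the 8 widely expressed subunits of complex IV, limma called 0, also at an unadjusted p under 0.05, and 7 had a log2 difference below 0, with a median of -0.06. Cox4i1, a large nuclear subunit, read 143273, 126094 and 92370 in knockout, against 120644, 144680 and 119921 in wild type (-0.11 ± 0.15). Cox5b, a zinc-binding subunit on the matrix side, averaged 121766 ± 8920 in knockout and 137592 ± 23650 in wild type (SD, n = 3 each; -0.17 ± 0.12). Cox7a2 had a log2 difference of 0.04 ± 0.08. Cox7a2l, which helps join complexes III and IV into supercomplexes, read 27082 to 29137 in knockout and 29643 to 34404 in wild type. Its groups were separate, but the difference of -0.17 ± 0.08 did not pass (limma adjusted p = 0.303).

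**Figure D3:**
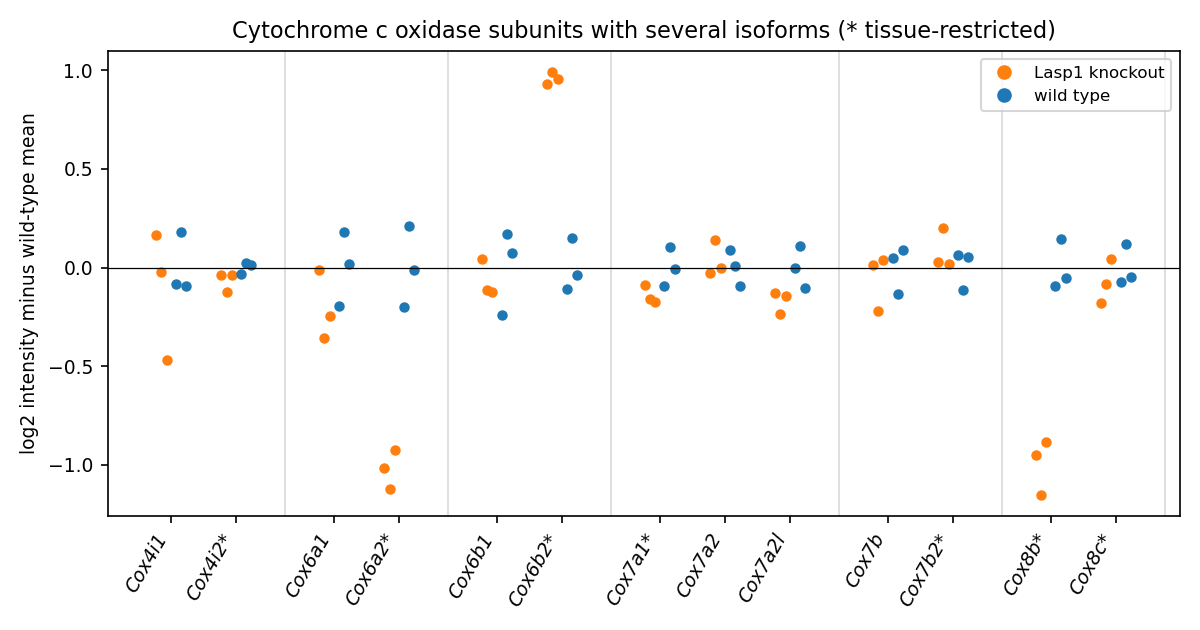
Log2 intensity of complex IV genes of families with isoforms, minus the mean of the wild-type arrays (y axis), with the 3 Lasp1 knockout arrays left of the 3 wild-type arrays for each gene and asterisks on tissue-restricted forms. The knockout points of Cox6a2 and Cox8b lie near -1 and those of Cox6b2 near 1, while the knockout points of the others lie nearer 0.

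Markers of other cell types moved with genotype in part. Of 10 skeletal or cardiac muscle markers, 2 rose and 0 fell: the skeletal actin Acta1 by 1.52 ± 0.14 and the cardiac actin Actc1 by 0.61 ± 0.09 on the log2 scale, with limma adjusted p of 0.000325 and 0.00322. The summed intensity of the 10 was 30111 to 30919 in knockout and 19899 to 20626 in wild type, opposite in direction to Cox6a2 and Cox8b. The regulator Myod1 and the creatine kinase Ckm were below the array median on average in both genotypes. Of 10 white or brown adipocyte markers, 2 fell: the hormone gene Adipoq (-2.02 ± 0.10 on the log2 scale) and the lipase gene Lpl (-1.49 ± 0.12), with limma adjusted p of 1.33e-05 and 0.00019. Their summed intensity was 28650 to 34209 in knockout and 62574 to 76753 in wild type. The brown fat markers Ucp1, Cidea and Dio2 did not pass, and Ucp1 averaged 819 in knockout and 841 in wild type. Of 7 epithelial markers 2 fell, the keratins Krt14 and Krt8 (-2.59 ± 0.11 and -0.71 ± 0.07). The summed intensity of the 7 was 9252 to 9496 in knockout and 20965 to 25993 in wild type. The list was mixed in direction, with 4 means lower and 3 higher in knockout, and 2 lower and 2 higher at an unadjusted p under 0.05 in limma. Of 5 macrophage or leukocyte markers 1 rose, Lyz2 (0.56 ± 0.10), all 5 had a higher mean in knockout, and the sum was 10714 to 11328 in knockout and 7914 to 9193 in wild type. That call was lost when knockout replicate 3 was left out and with normexp. Of 6 endothelial markers 1 rose, Emcn (0.62 ± 0.09), with a sum of 9157 to 9675 in knockout and 8180 to 8777 in wild type. The mean of 4 of the 6 was lower in knockout, and 1 was lower and 2 higher at an unadjusted p under 0.05 in limma. Of 5 neural markers limma called 0, also at an unadjusted p under 0.05, with a sum of 8098 to 8861 in knockout and 7999 to 9281 in wild type. The part of these cell types in the isoform differences was not tested, and in bulk RNA fewer cells of a type and less RNA per cell cannot be told apart.

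In complex I, the NADH dehydrogenase, 40 of 44 genes (90.9%) had a lower mean in knockout, with a median log2 difference of -0.12. Among all genes 58.0% were lower, among those brighter than the median probe 63.1%, and among the 1906 of highest mean intensity 68%, with medians of -0.02, -0.06 and -0.09. Limma called 1 of the 44, the assembly factor Ndufaf7, and 10 were lower and 0 higher at an unadjusted p under 0.05. The number of falls was 7 with array weights, 4 without knockout replicate 1 and wild type replicate 2 together, 2 when wild type replicate 1 was left out, and 0 when knockout replicate 2, knockout replicate 3 or wild type replicate 3 was. In 9 the knockout arrays lay entirely below the wild-type arrays, or 20.5%, against 14.0% of all genes, 19.2% of those brighter than the median probe and 21% of the 1906 brightest, so this share was near that of genes as bright. The median stayed below 0 under every alternative, from -0.16 to -0.04, and the number of lower genes was 33 after quantile normalization.

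Ndufaf7, a methyltransferase needed for assembly of complex I, read 4157, 4091 and 4142 in knockout, against 4955, 4989 and 5543 in wild type. The groups were separate, with a log2 difference of -0.32 ± 0.07 (limma adjusted p = 0.035). The call was lost without knockout replicate 1, 2 or 3 (limma adjusted p = 0.0716, 0.123 and 0.134) or wild type replicate 3 (0.154), and it held in 5 of 15 alternatives, whose adjusted p ranged from 0.00252 to 0.33. Its other probes lay below the array median and differed by -0.13 and 0.04. Ndufaf5, another assembly factor, came next, with 5829, 4955 and 4892 in knockout against 6208, 6711 and 6683 in wild type (-0.33 ± 0.09, limma adjusted p = 0.0649). Ndufaf5 was called with array weights, with the mean of all probes and without knockout replicate 1. It was also called without knockout replicate 1 and wild type replicate 2 together. Over the 8 assembly factors of this name, 6 were lower and 1 fell.

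The core subunits of complex I include those that carry its flavin and iron-sulfur clusters. All 6 measured here (Ndufs1, Ndufs3, Ndufs7, Ndufs8, Ndufv1 and Ndufv2) had a lower mean in knockout, with a median of -0.17, and limma called 0 of them, with 2 at an unadjusted p under 0.05. Ndufs1 averaged 853 in knockout and 908 in wild type, below the array median, so its direction says little. Ndufs8, an iron-sulfur subunit, read 33529, 27103 and 25833 in knockout, against 32682, 42420 and 35307 in wild type. Knockout replicate 1 lay above wild type replicate 1, and the difference of -0.35 ± 0.12 did not pass (limma adjusted p = 0.153), though it did with array weights and with the arrays centred on their 75th percentile (0.0195 and 0.0379). It also passed without knockout replicate 1 and wild type replicate 2 together. Ndufs7, which holds the last iron-sulfur cluster before ubiquinone, read 41294, 37024 and 36812 in knockout, against 41678, 50524 and 43594 in wild type (-0.24 ± 0.09).

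Accessory subunits surround the core and are needed for its assembly and stability. Of 29, 27 were lower, limma called 0, and 5 were lower and 0 higher at an unadjusted p under 0.05, with a median of -0.11. Ndufa9, at the junction of the arms, read 43393, 44008 and 44256 in knockout, against 47882, 57966 and 56802 in wild type. The groups were separate, with a difference of -0.30 ± 0.09 that did not pass (limma adjusted p = 0.0857). Ndufs6, a zinc-binding subunit, read 95454, 92855 and 84551 in knockout, against 103916, 113146 and 99268 in wild type, also with separate groups (-0.21 ± 0.08, adjusted p = 0.196).

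The groups were also separate and lower in knockout for Ndufa8, Ndufa12, Ndufb3 and Ndufs4, none of which passed. Ndufa8 was called with array weights. The groups of the bright accessory subunits Ndufa13 and Ndufv3 overlapped. Ndufa13, known also as GRIM-19, averaged 178867 ± 9216 in knockout and 191880 ± 21856 in wild type (SD, n = 3 each), and Ndufv3 87574 ± 7735 in knockout and 89919 ± 11603 in wild type. Ndufa1, a small membrane subunit, had the largest upward value of complex I, with 39802, 46798 and 37469 in knockout, against 38895, 37204 and 33323 in wild type (0.18 ± 0.10, limma adjusted p = 0.419). Ndufa4, named with complex I but found in complex IV, differed by -0.03 ± 0.13. All 10 Ndufb genes had a lower mean in knockout, against 58.0% of all genes and 63.1% of those brighter than the median probe. Of the 10, 0 passed, with 0 at an unadjusted p under 0.05 in limma. In 4 of them all arrays read under 1500, so their direction says little.

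Complex II, succinate dehydrogenase, is the enzyme shared with the tricarboxylic acid cycle. Sdhb, its iron-sulfur subunit, was 1.35-fold lower in knockout and was the only one of the 4 to fall. It read 10342, 7803 and 8812 in knockout, against 11805, 12680 and 11676 in wild type. The groups were separate, with a log2 difference of -0.43 ± 0.10 (limma adjusted p = 0.0423). All 3 of its probes were lower, at -0.43, -0.32 and -0.18. The call was lost without knockout replicate 2 or 3 (0.141 and 0.175) or any wild-type array (0.0507, 0.0672 and 0.138 for replicates 1, 2 and 3), and held in 6 of 15 alternatives, with limma adjusted p from 0.00544 to 0.207. Sdhc, a membrane anchor, read 47316, 43397 and 40701 in knockout, against 42233, 54010 and 52460 in wild type (-0.17 ± 0.11). Sdhd, the other anchor, averaged 1031 ± 66.1 in knockout and 1037 ± 134 in wild type (SD, n = 3 each), and the flavoprotein gene Sdha read below the array median on every array, so their probes carry little information.

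Complex III, the cytochrome bc1 complex, had 0 calls in limma among 7 genes, with 1 lower and 0 higher at an unadjusted p under 0.05. Uqcrc2, a core protein, read 67929, 68842 and 65265 in knockout, against 74523, 84824 and 91697 in wild type. The groups were separate, but the difference of -0.31 ± 0.09 did not pass (limma adjusted p = 0.0812), though it did without wild type replicate 1 (0.0211) and with array weights (0.00417). The small subunit gene Uqcrq went the other way, at 5265, 3766 and 4091 in knockout, against 2549, 5146 and 3093 in wild type. Its groups overlapped through wild type replicate 2, and the difference was 0.33 ± 0.23 (limma adjusted p = 0.539), or 0.62 without that array (0.0207). Uqcr10 and Uqcr11, small subunits, differed by -0.07 ± 0.10 and 0.05 ± 0.09. Uqcrh differed by 0.15 ± 0.08 (limma adjusted p = 0.38), with overlapping groups, and was called as higher after quantile normalization. The median of the 7 was 0.03 and changed sign among alternatives, from -0.04 to 0.08. With all arrays that median was the value of Uqcrfs1, whose probe averaged 1059 in knockout and 1033 in wild type. These readings are near the array median, so the median says little about the level of the complex.

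Complex V, the ATP synthase, had 0 calls in limma among 16 genes, with 1 lower and 0 higher at an unadjusted p under 0.05. Atp5b, the catalytic beta subunit, read 427936, 406115 and 367134 in knockout, against 383208, 426640 and 399615 in wild type, with overlapping groups and a difference of -0.01 ± 0.08. Atp5pb, subunit b of the stalk that holds the head still, read 13692, 12607 and 12991 in knockout, against 14515, 15419 and 17249 in wild type. The groups were separate at -0.26 ± 0.08 but did not pass (limma adjusted p = 0.12), and of its 4 probes 3 were lower. With array weights Atp5pb was called (limma adjusted p = 0.0074). The rotor ring subunit c is coded by several genes: Atp5g3 read 179067, 213754 and 182040 in knockout, against 166313, 171409 and 174061 in wild type (0.16 ± 0.09, limma adjusted p = 0.371), and Atp5g2 differed by -0.08 ± 0.08. Atp5j2, subunit f, differed by 0.07 ± 0.08. The median of the complex was -0.02 and ranged from -0.05 to 0.04 over the alternatives, so it has no settled sign.

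Over all 87 members, 69 (79.3%) had a lower mean in knockout, the median log2 difference was -0.09 and the middle of the distribution ran from -0.17 to -0.02. In 16 members (18.4%) the knockout arrays lay entirely below the wild-type arrays, against 14.0% of all genes and 19.2% of those brighter than the median probe. In 2 (2.3%) they lay entirely above, against 7.34% of all genes and 8.46% of the brighter ones. The number of lower members was 55 after quantile normalization, and the median was then -0.03. On 17 members all 6 arrays read under 1500, that is 1.5 times the array median, among them Ndufs1, Sdha, Uqcrfs1 and Atp5e, which code for subunits that respiring cells use. Of the 35 members with several probes, all probes had the same sign in 22.

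The mean log2 intensity of a complex moved with the array as well as with the genotype. For complex I the knockout arrays stood at -0.07, -0.13 and -0.18 relative to the mean of wild type, and the wild-type arrays at -0.05, 0.08 and -0.03. For complex III the knockout arrays stood at 0.12, -0.05 and -0.05, and the wild-type arrays at -0.16, 0.17 and -0.01. The knockout arrays were lowest as a group in complexes I, II and IV, and overlapped wild type in complexes III and V. The mean of complex IV includes the called Cox6a2, Cox8b and Cox6b2, and that of complex II covers only 4 genes, among them the called Sdhb. Of the 8 widely expressed genes of complex IV, 0 had arrays that were separate between the genotypes. Knockout replicate 1 and wild type replicate 2, whose upper quartiles were highest, were the highest arrays of their genotypes in every complex. The same 2 arrays were the highest of their genotypes over the 11985 genes brighter than the median probe, at 0.02 and 0.10.

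**Figure D4:**
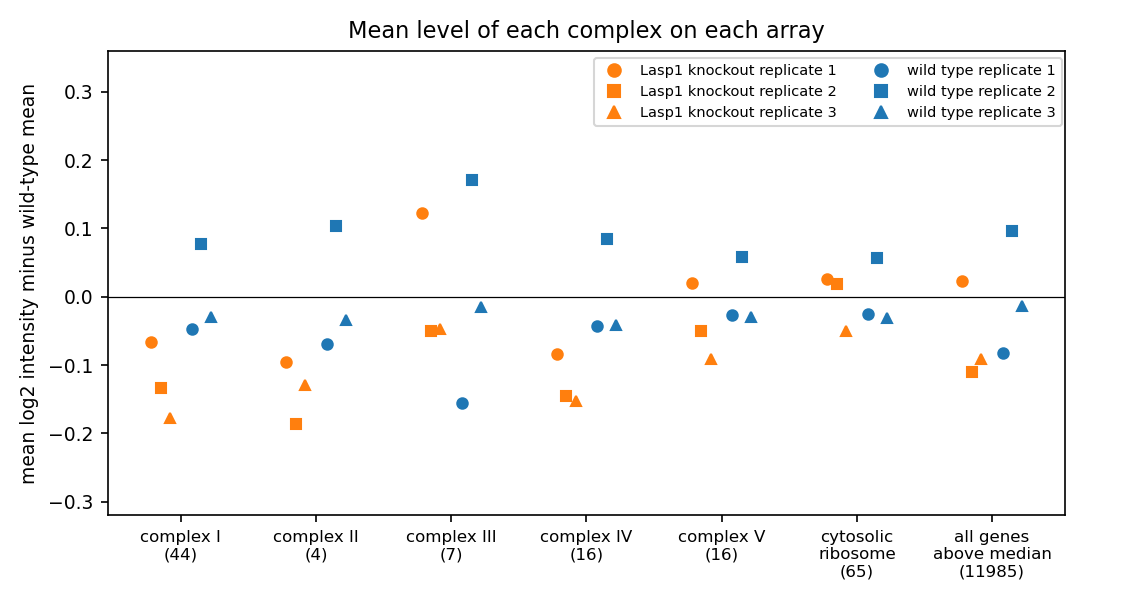
Mean log2 intensity of all genes of each complex on each array, minus the mean of the 3 wild-type arrays (y axis), with Lasp1 knockout left of wild type, beside 65 cytosolic ribosomal protein genes and the 11985 genes brighter than the median probe. Numbers in parentheses count genes; the knockout arrays lie below all wild-type arrays in complexes I, II and IV and overlap them in III and V.

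Genes that work with the chain showed few calls. The mitochondrially encoded subunits, transcribed inside the organelle, had 6 of 8 means higher in knockout, with a median of 0.16, and limma called 0, with 1 higher at an unadjusted p under 0.05. Without wild type replicate 3 the median was 0.03 and 4 of 8 were lower, so neither size nor direction was settled. CYTB, the cytochrome b of complex III, averaged 277489 in knockout and 240618 in wild type (0.21 ± 0.12). Of cytochrome c and its partner, Cyc1 and Cycs differed by -0.31 ± 0.10 and -0.21 ± 0.09 (limma adjusted p = 0.133 and 0.242), and the testis gene Cyct by 0.09.

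Assembly genes outside the rule gave 1 rise and 1 fall. Of 9 genes for complexes II and III, Ttc19, which clears fragments of the iron-sulfur protein from complex III, rose: it read 9082, 8905 and 8486 in knockout, against 6759, 6640 and 6195 in wild type (0.43 ± 0.07, limma adjusted p = 0.00813, and 0.0533 without wild type replicate 3). Its call was also lost with normexp and with the replicate block. It held in 12 of 15 alternatives, with limma adjusted p up to 0.137. Of 22 genes for complex IV, Lrpprc, which stabilises mitochondrial messenger RNAs, fell: it read 5824, 5357 and 5939 in knockout, against 7631, 7097 and 8874 in wild type (-0.46 ± 0.10, limma adjusted p = 0.022). It was not called without knockout replicate 2 or 3 or wild type replicate 3 (0.0982, 0.0836 and 0.0905). Nor was it called after quantile normalization, with normexp or with the replicate block. The call held in 9 of 15 alternatives, with limma adjusted p up to 0.151. Of 9 complex I assembly genes, 4 ATP synthase assembly genes, 8 other electron donors and 7 nucleotide and phosphate carriers, limma called 0, with 1, 1, 2 and 1 lower and 0, 0, 1 and 0 higher at an unadjusted p under 0.05.

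Of 17 tricarboxylic acid cycle genes 1 fell, Pdhb of pyruvate dehydrogenase (-0.27 ± 0.07, limma adjusted p = 0.0491). That call was lost whichever array was left out (0.0572 to 0.195), and the mean of its 3 probes differed by 0.03. Of 14 regulators of mitochondrial biogenesis limma called 0, with 2 lower and 0 higher at an unadjusted p under 0.05. Tfam, which packages and transcribes mitochondrial DNA, came nearest, at 4708, 4032 and 3819 in knockout against 5475, 5438 and 5054 in wild type (-0.35 ± 0.09, limma adjusted p = 0.0578). The coactivator Ppargc1a read near the array median in both genotypes.

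The ribosomes give a scale for such small differences. Mitochondrial ribosomal protein genes had 71 of 76 means lower in knockout, a median of -0.19 and 2 calls, both falls: Mrpl15 (-0.40 ± 0.08) and Mrpl30 (-0.47 ± 0.12), with limma adjusted p of 0.0163 and 0.0493, both named after their values were seen. At an unadjusted p under 0.05 in limma, 32 of the 76 were lower and 0 higher, or 42.1%, against 18.6% of all genes and 28.3% of those brighter than the median probe. In 27 (35.5%) the knockout arrays lay entirely below the wild-type arrays, against 14.0% of all genes and 19.2% of the brighter ones. Without knockout replicate 2, knockout replicate 3 or wild type replicate 3 there were 0 calls in this list, and leaving out wild type replicate 2 gave 1, knockout replicate 1 gave 7 and wild type replicate 1 gave 8. Falls numbered 22 with array weights, 11 with centring on the 75th percentile, 9 without the pair of arrays with the highest upper quartiles, 7 after quantile normalization, 1 with trend or with the mean of all probes, and 0 with normexp or the replicate block. Its median ranged from -0.23 to -0.10 over the alternatives. The cytosolic ribosomal protein genes had 32 of 65 means lower, a median of 0.00 and 0 calls, with 2 lower and 2 higher at an unadjusted p under 0.05, and their median ranged from -0.02 to 0.02.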

How the data were processed

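The authors' deposited values are probe intensities of 6 Illumina arrays hybridised, per the labels, with biotin-labelled cRNA. All arrays had a median of 1000 over 45281 probes. No source used here names the scanner software or the background correction. Probes were named from the supplied annotation: 34885 had 1 symbol, 18 several and 10378 none, and the last 2 kinds were left out. Each gene took the values of its brightest probe, by the mean of all 6 arrays. Log2 values of 19057 genes, with no further normalization, entered lmFit and eBayes of limma 3.58.1 (R 4.3.3), with genotype as the only term, and p-values were adjusted by Benjamini-Hochberg over all genes at a threshold of 0.05. The fit was also run on simulated data, with normal errors independent between genes and arrays. Such data lack deviations that the genes of an array share, so the run gives no error rate for these arrays.

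The members and lists were chosen with earlier results of these data known. Named were Lasp1, called members, in each complex the 3 of highest mean and the largest rise and fall, the isoform families, and called list genes. Other genes named (Ndufaf5, Ndufa9, Ndufs7, Uqcrh, dim genes, Cyc1, Cycs, Cyct, CYTB, Tfam and markers) were chosen after their values were seen.

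Alternatives were quantile normalization, centring on the 75th percentile, normexp (offset 50), only genes brighter on average than the median probe, the mean of a gene's probes, array weights, trend with robust estimation (with statmod 1.5.0), the replicate block and each array left out. Leaving out knockout replicate 1 and wild type replicate 2 together was added after the data were seen. The number of arrays limits precision.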

Additional observations from a re-analysis of the deposited data

How the results depend on the processing

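Cox6a2, Cox8b and Cox6b2 were called under all 15 alternatives. The number of members called was 5, and was 3 with normexp background correction, with trend and robust estimation and with the replicate block, 13 with array weights and 9 without knockout replicate 1 and wild type replicate 2. It was 3 to 6 when each array was left out. Falls numbered 4, and were 2 with normexp, with trend and with the replicate block, 12 with array weights, 7 without those 2 arrays and 2 to 5 with each array left out. Rises numbered 1, and were 2 after quantile normalization, 2 without those 2 arrays and 1 to 2 with each array left out. The median log2 difference moved by more than the spread between arrays (pooled SD of the array medians of centred genes) in complex I after quantile normalization (-0.043, against -0.12), in complex IV with normexp (-0.17, against -0.070) and in complex II over genes brighter than the median probe (-0.17, against -0.087, with 3 genes left). The other medians of the members and complexes moved by less. The number of all genes called was 1196, and was 2092 after quantile normalization, 1862 after centring on the 75th percentile, 538 with normexp, 3267 with array weights, 415 with the replicate block and 463 to 1594 with each array left out. Over 11985 genes, the deviations of same-numbered arrays of the genotypes correlated at -0.41, -0.34 and 0.22. The replicate number is therefore not taken as a pairing. Other arrays did deviate together: knockout replicate 1 with wild type replicate 2 (0.47) and knockout replicate 2 with wild type replicate 1 (0.40). The remaining pairs lay between -0.15 and 0.008. The fit with genotype as the only term does not model these shared deviations. Their cause and the causes of the moves above were not tested.

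Of 524 values of 35 named genes under alternatives, 447 kept their direction and their side of the threshold, 41 lost a call, 8 gained 1 and 28 changed sign. Those that changed sign were Atp5g2 (0.027), Ndufa4 (0.076), Ndufv3 (0.028) and Sdhd (0.0086) after quantile normalization, Atp5b (0.011) and Sdhd (0.020) after centring on the 75th percentile, Sdhd with normexp (0.017) and with array weights (0.17), and Pdhb with the mean of all probes (0.034). With each array left out, the log2 difference ran from -0.061 to 0.050 for Atp5b, -0.0077 to 0.10 for Atp5j2, -0.25 to 0.071 for Cox4i1, -0.18 to 0.020 for Cox6b1, -0.015 to 0.081 for Cox7a2, -0.15 to 0.095 for Ndufa4, -0.11 to 0.066 for Ndufv3, -0.11 to 0.077 for Sdhd and -0.16 to 0.048 for Uqcr10. Without knockout replicate 1 and wild type replicate 2 together, Cox8c (0.039), Sdhd (0.12) and Uqcr10 (0.029) changed sign. Only Pdhb among these was called with all arrays. Probes near the array median limit what could be called among the 17 dim members.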
